A study of Mus musculus with 6 samples.

Results

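The genes for the proteins of the cytosolic ribosome were compared between mouse hearts labelled as controls and hearts labelled as lacking Wtap. Members were all protein coding genes of the deposited table whose symbol is Rpsa or follows the Rps, Rpl or Rplp naming pattern, none of which lay on chromosome Y. There were 84 of them among 54532 genes in the table, of which 22046 are protein coding. They comprised 32 genes of the small subunit, 49 of the large subunit and 3 of the P stalk, and they include Rpl3l, the striated muscle counterpart of Rpl3. RNA with a poly-A tail was read from whole hearts, taken at an age of 4 days. The controls were 3 hearts of genotype Wtapflox/flox, called Wtap-flox here, and the other group was 3 hearts labelled Wtap-CKO, a conditional knockout of the same gene. The submitters describe the 3 hearts of a group as independent biological replicates. The sources used here do not name the Cre driver, the deleted exons, the strain or the sex of the animals. WTAP belongs to the regulatory part of the methyltransferase complex that places N6-methyladenosine on messenger RNA, and the series is about its effect on heart development.

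A cytosolic ribosome is built from a small subunit, which reads the messenger RNA, and a large subunit, which joins amino acids and carries the acidic P stalk that recruits translation factors. Messenger RNAs for ribosomal proteins typically begin with a run of pyrimidines (the TOP motif), which links their translation to mTORC1 through LARP1. Most mammalian ribosomal proteins come from a single active gene, but a few have a paralogue with a restricted pattern, such as Rpl3l in heart and skeletal muscle. These short, abundant messenger RNAs have also left very many processed pseudogenes in the genome, and reads from a gene and its copies are hard to tell apart.

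The letters TCTT, a narrow reading of the pyrimidine run, stood at or near the start in a larger share of members than of genes as a whole. Most members lacked these exact letters. Other runs of C and T were not counted, so a member without TCTT may still begin with one, as Rps27 does. Promoter windows from 250 bases before to 50 after the annotated start were found in RefSeq (GRCm38.p6) for 64 of the 84 members. The letters TCTT, read on the gene's strand with their C at the start site or within 5 bases of it, stood in 17 of the 64 (26.6%). They stood in 5.97% of all 27025 genes with such windows in RefSeq, which were not restricted to the deposited genes. With the C exactly at the start they stood in 4 members (6.25%) and in 0.544% of all genes. Windows of 30 bases around the start are shown for those 4, for Rpl22l1 and for the first annotated start of Rpl3l, the last 2 being the members that passed the test described below. Capitals mark TCTT:
Rpl38, chr11:114668565-114668594, plus strand: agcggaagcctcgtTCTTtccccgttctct
Rpl14, chr9:120571502-120571531, plus strand: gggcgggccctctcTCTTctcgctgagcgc
Rpl15, chr14:18270972-18271001, minus strand: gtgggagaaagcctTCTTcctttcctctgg
Rps15a, chr7:118116133-118116162, minus strand: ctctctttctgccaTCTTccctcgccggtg
Rpl22l1, chr3:28805493-28805522, plus strand: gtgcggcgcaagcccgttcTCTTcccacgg
Rpl3l, chr17:24727811-24727840, plus strand: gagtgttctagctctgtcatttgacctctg
Rpl3l has no TCTT near either of its annotated starts, while in Rpl22l1 the C lies 5 bases after the start. The letters TATAAA stood on either strand in 10.9% of the members and 15.7% of all genes, and CANNTG, the E-box, in 50% and 75%. Rpl3l was the only 1 of the 64 members (1.56%) with a match to the MEF2 consensus, which 3.7% of all genes had. That match, in capitals in the next line, starts 123 bases before the second annotated start of the gene.
Rpl3l, chr17:24732537-24732596, plus strand: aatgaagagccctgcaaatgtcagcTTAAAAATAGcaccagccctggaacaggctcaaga
The same stretch occurs once on chromosome 17 of GRCm39, at chr17:24951511-24951570, inside Rpl3l and outside all of its annotated exons in GENCODE.

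Reads assigned to genes numbered between 15649028 and 18045599 per library. Values are FPKM, which divides a gene's reads by its length in the file and by the size of the library. That length can far exceed the coding sequence, as in Rps15a with 6270 and 390 bases. Levels of different genes, their ranks and their shares are therefore compared only roughly. The targeted gene Wtap had 7.77, 8.74 and 10.9 FPKM in the Wtap-flox hearts and 9.32, 7.75 and 9.46 FPKM in those labelled Wtap-CKO (log2 fold change -0.04, adjusted p = 0.893, limma), and so was not lower there. The value covers the whole gene, so a deletion of some exons need not show in it. All directions below rest on the labels. The library Wtap-CKO 3 stood apart from the other 5 in the ribosomal protein genes, as described below. It also stood apart over all tested genes. On their second principal component (20.4% of the variance) it was at 28.1. Wtap-CKO 1 and 2 were at -14.7 and -21.3 there, and the Wtap-flox libraries between 0.13 and 4.14. The main results for the members are given with and without Wtap-CKO 3.

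The stalk genes Rplp1 and Rplp0 had the highest mean FPKM of all members. Rplp1, an acidic stalk protein, stood at 803.5, 1010.1 and 1113.3 FPKM in Wtap-flox and at 1314.0, 1136.0 and 1929.2 FPKM in Wtap-CKO. Rplp0, the base on which the stalk is built, stood at 469.8, 543.8 and 555.6 FPKM and at 603.0, 538.0 and 871.4 FPKM. Rps3a1, Rps15 and Rpl36 came next, while the third stalk gene, Rplp2, was at rank 39 with a mean of 111.3 FPKM. The length used for Rplp2 was 2072 bases and that for Rplp1 499 bases, though their coding sequences have 345 and 342 bases. Averaged over the 6 libraries, 47 of the 84 members reached 100 FPKM, against 427 of all 12568 tested genes. Genes were tested where this mean reached 1 FPKM. Rpl10l (0 in all 6 libraries), Rpl39l and Rpl36al stayed below it, which left 81 members tested. The lowest tested members were Rps10, Rpl24, Rpl3l, Rpl13a and Rpl21, with means of 1.28 to 11.2 FPKM. Of these, Rps10 and Rpl13a overlap another coding gene, and the part of that overlap in their low values was not tested.

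Together the 84 genes held 2.97, 3.31 and 3.46% of the summed FPKM in the Wtap-flox libraries and 3.73, 3.13 and 5.25% in the Wtap-CKO libraries. The means were 3.25 ± 0.249% and 4.04 ± 1.10% (SD, n = 3), a difference of 0.788 percentage points that was 0.179 without Wtap-CKO 3. The groups overlapped, since Wtap-CKO 2 lay below 2 of the 3 Wtap-flox libraries. Large subunit genes without the stalk held between 1.35 and 2.32% and small subunit genes between 1.2 and 2.16%. The summed FPKM of large subunit and stalk genes was 1.44 to 1.52 times that of small subunit genes in all 6 libraries.

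**Figure D1:**
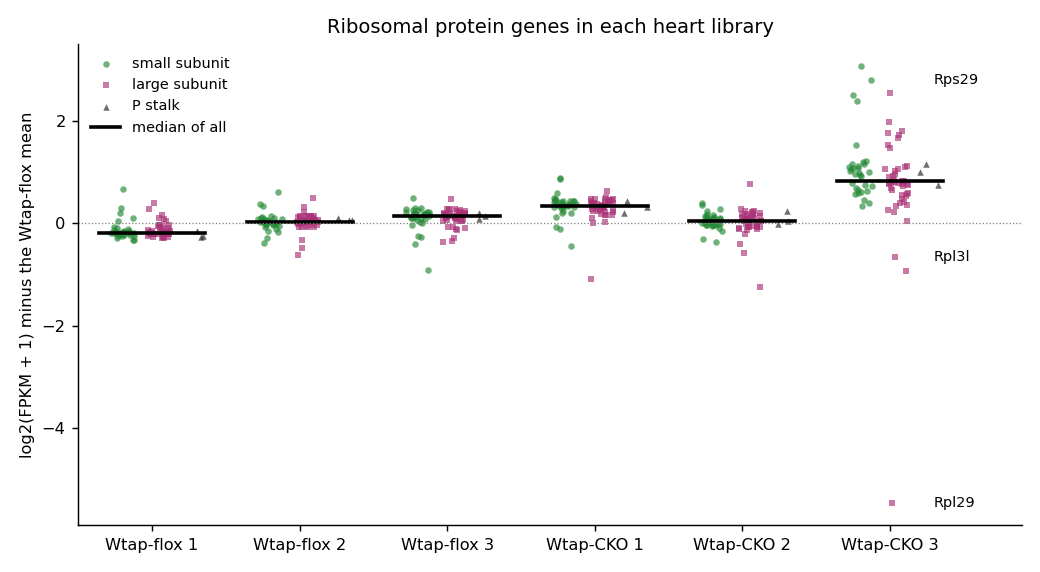
Each point is 1 of the 81 tested ribosomal protein genes in 1 library, as log2(FPKM + 1) minus the mean of the 3 Wtap-flox libraries (vertical axis), with small subunit, large subunit and P stalk genes marked separately and a bar at the median of all. The medians are -0.18, 0.03 and 0.15 in Wtap-flox and 0.34, 0.04 and 0.82 in Wtap-CKO, and the points of Wtap-CKO 3 are the most widely spread, with Rpl29 at -5.46.

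Between the groups, 2 members passed the test and they went in opposite directions. Rpl22l1 was higher and Rpl3l was lower in Wtap-CKO at an adjusted p below 0.05 (limma on log2(FPKM + 1), Benjamini-Hochberg over all 12568 tested genes). Over all genes, 16.6% of tested genes were called, 9.91% as higher (1245 genes) and 6.69% as lower (841 genes). The split in the whole table depended on scaling: with every library rescaled to the same total (TPM) 793 genes were higher and 1601 lower, as the fold change of the median gene shifted to -0.14 (log2). When mitochondrially encoded genes were left out of that total, the split was 768 and 1597, with upper-quartile scaling 988 and 1195, and with ribosomal protein genes left out too 811 and 1561. Among genes averaging 5 FPKM or more it was 992 and 471, and it was 1124 and 1006 with quantile normalization.

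Although so few passed, the members leaned to one side. The log2 fold change of Wtap-CKO over Wtap-flox was above 0 in 78 of 81 members, against 50.4% of all tested genes. The median was 0.44, against 0.00 for all tested genes. By subunit it was 0.49 for 32 small subunit genes, 0.42 for 46 large subunit genes and 0.48 for the 3 stalk genes. Without Wtap-CKO 3 these medians were 0.23, 0.19 and 0.15. At an unadjusted p below 0.05, 14 members were higher and 1 was lower, against 17.5% of all genes that were higher at that level. In 8 members no value of Wtap-CKO reached down to those of Wtap-flox, against 19.8% of all tested genes. Without Wtap-CKO 3, the fold change was above 0 in 72 of 80 members, Rps10 then being under 1 FPKM (50.7% of all genes), the median was 0.19 (0.01 for all genes), and Rpl3l alone passed, against 16.1% of all genes called. Relative to the median of all genes, the members' median was 0.41 with TPM scaling and 0.25 with quantile normalization.

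**Figure D2:**
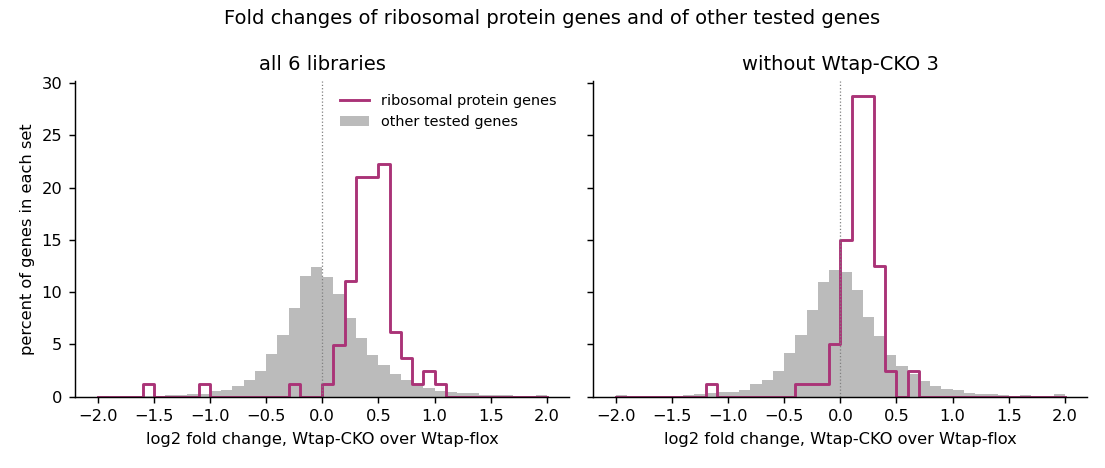
Percent of genes (vertical axis) in bins of the log2 fold change of Wtap-CKO over Wtap-flox (horizontal axis), for ribosomal protein genes (line) and other tested genes (bars), with all 6 libraries on the left and without Wtap-CKO 3 on the right. Values beyond 2 in either direction are drawn in the outermost bins. The median of the members is 0.44 on the left and 0.19 on the right.

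Rpl3l (ENSMUSG00000002500, chromosome 17, 24727820 to 24736143 in the coordinates of the file, which match GRCm38) was the member that differed most clearly. It encodes the striated muscle form of the large subunit protein uL3, which lines the peptidyl transferase centre. It stood at 4.47, 4.25 and 3.88 FPKM in Wtap-flox and at 1.43, 1.18 and 2.28 FPKM in Wtap-CKO. All 3 Wtap-CKO values lay below all 3 Wtap-flox values. The means of 4.20 ± 0.297 and 1.63 ± 0.575 FPKM (SD, n = 3) differed 2.58-fold, and the log2 fold change was -1.0 ± 0.161 (SE; 95% interval -1.37 to -0.64, adjusted p = 0.00456, limma). Rpl3l passed in all 22 alternatives in which it was tested, with an adjusted p of up to 0.0252, and without Wtap-CKO 3 it had -1.17 (adjusted p = 0.00234). No near-identical copy of Rpl3l was found. In whole hearts, fewer cells of a type and less RNA per cell cannot be told apart. The 9 cardiomyocyte markers, none of them at 0, summed to between 16439 and 19817 FPKM in Wtap-flox and between 17177 and 21220 FPKM in Wtap-CKO, so the sums overlap. Of these markers 1 fell, the calcium release channel gene Ryr2 (-0.97), and 0 rose, against 6.69% of all tested genes lower and 9.91% higher. In all, 7 of the 9 had a fold change below 0, with a median of -0.17 (-0.39 without Wtap-CKO 3), and Myl7 (-1.78, adjusted p = 0.0720) and Pln (-0.53, adjusted p = 0.0751) were lower at an unadjusted p below 0.05. The part of these cells in the level of Rpl3l was not tested.

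The ubiquitous Rpl3 went the other way. It stood at 138.7, 164.4 and 182.6 FPKM in Wtap-flox and at 205.9, 182.7 and 222.6 FPKM in Wtap-CKO (log2 fold change 0.33, adjusted p = 0.204, limma). The median of the members was 0.44. Without Wtap-CKO 3, Rpl3 had 0.27 and the median of the members was 0.19. Rpl3l therefore made up 3.12, 2.52 and 2.08% of the summed FPKM of both genes in Wtap-flox and 0.691, 0.643 and 1.01% in Wtap-CKO. The log2 ratio of Rpl3l to Rpl3, which does not depend on library scaling, differed by -1.75 between the groups (exact permutation test, two-sided p = 0.1, adjusted p = 0.2 over 4 pairs), where 3 against 3 libraries cannot give less than 0.1. The ratio was 3.38-fold lower and the groups did not overlap.

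Rpl22l1 (ENSMUSG00000039221, chromosome 3, 28805436 to 28807424) is the paralogue of Rpl22, and the proteins of this pair are known to regulate each other's level. It stood at 12.1, 14 and 14.7 FPKM in Wtap-flox and at 19.3, 16.6 and 20.6 FPKM in Wtap-CKO. The groups did not overlap, and the log2 fold change was 0.44 ± 0.131 (SE; adjusted p = 0.0499, limma), a value equal to the median of the members. The call is at the edge of the threshold: it was lost in 16 of 23 alternatives, among them the fits without Wtap-flox 1, 2 or 3 (adjusted p = 0.157, 0.122 and 0.0776), without Wtap-CKO 1 (0.141) and without Wtap-CKO 3 (0.0931). Rpl22 itself had 0.28 (adjusted p = 0.207). Rpl22l1 made up 21.6, 24.2 and 22.4% of the pair in Wtap-flox and 25.1, 24.9 and 25.4% in Wtap-CKO, a log2 ratio that was higher by 0.19 (exact permutation test, two-sided p = 0.1, adjusted p = 0.2). The other pairs overlapped between groups. The log2 ratio of Rpl7l1, a nucleolar relative of Rpl7, to Rpl7 differed by -0.14 (exact permutation test, two-sided p = 0.4). That of Rps27l, a p53-responsive gene, to Rps27 differed by -0.56 (exact permutation test, two-sided p = 0.5), or -0.04 without Wtap-CKO 3. Copies of Rps27 held from 11.9 to 60.1% of the reads of gene and copies, so the ratio of this pair is uncertain.

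**Figure D3:**
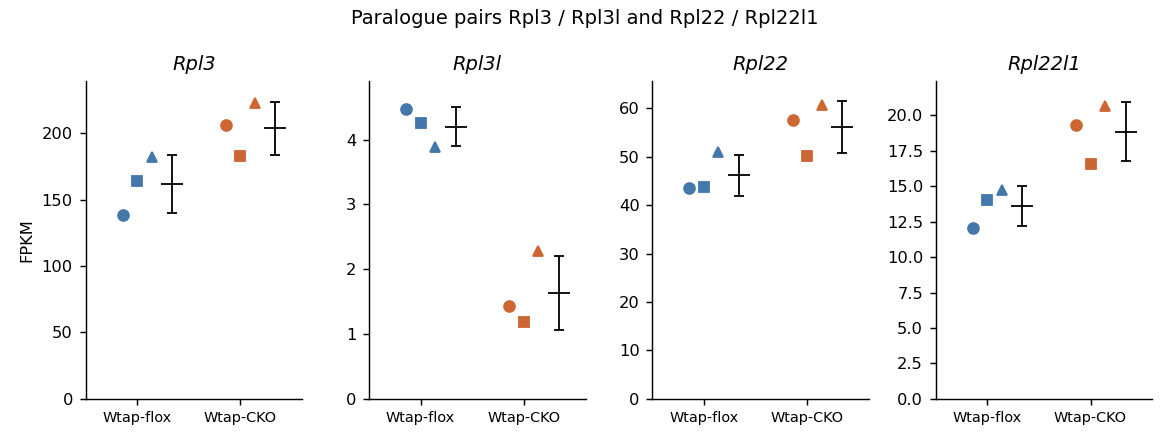
FPKM (vertical axes, from 0, a separate scale for each gene) of Rpl3, Rpl3l, Rpl22 and Rpl22l1 in the 3 Wtap-flox and 3 Wtap-CKO libraries, with circles, squares and triangles for replicates 1, 2 and 3 and the mean ± SD beside them. The 3 Wtap-CKO values of Rpl3l, from 1.18 to 2.28, lie below the lowest Wtap-flox value of 3.88, and those of Rpl22l1 lie above the Wtap-flox values.

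Just short of the threshold were Rps27a and Rps12, both of the small subunit. Rps27a, which encodes ubiquitin fused to eS31 and overlaps the coding gene Clhc1, stood at 64.3, 55.5 and 60.3 FPKM in Wtap-flox and at 111.2, 76.4 and 175.1 FPKM in Wtap-CKO. Its groups did not overlap (log2 fold change 0.92 ± 0.270 SE, adjusted p = 0.0520, limma), and without Wtap-CKO 3 it had 0.61 (adjusted p = 0.0550). Rps12, which encodes eS12 of the small subunit head, stood at 38.5, 43.2 and 68.3 FPKM and at 88.5, 64.1 and 106.6 FPKM, with the highest Wtap-flox value above the lowest Wtap-CKO value (0.79 ± 0.254 SE, adjusted p = 0.0675). Near-identical copies of Rps12 held 41.4, 44.6 and 26.8% of the reads of gene and copies in Wtap-flox and 25.9, 25.1 and 31.4% in Wtap-CKO. With reads of the copies added, the log2 fold change was 0.57 for Rps12 and 0.83 for Rps27a. Limma-voom on recovered reads called both (adjusted p = 0.0222 for Rps27a and 0.0331 for Rps12), as did both corrections for length. The other members with the largest positive fold changes, Rpl38 (1.04), Rps27 (0.95) and Rps28 (0.86), owed their size to a single library: without Wtap-CKO 3 they had 0.29, 0.18 and -0.24. The lowest fold changes after Rpl3l and Rpl29 were those of Rpl24 (-0.27), Rpl30 (0.02) and Rpl7l1 (0.12), and none of them passed.

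Wtap-CKO 3 was the highest of the 6 libraries in 77 of 81 members, against 22.9% of all tested genes. Its excess over the other Wtap-CKO hearts was greatest for the shortest coding sequences. In the 9 tested members with a coding sequence under 300 bases, the median of log2(FPKM + 1) in Wtap-CKO 3 was 2.25 above the mean of Wtap-CKO 1 and 2, with a range from 0.78 (Rps27l) to 3.31 (Rps28). The median was 0.76 in 28 members from 300 to below 450 bases, 0.62 in 19 members below 600 bases, 0.43 in 21 members below 900 bases and 0.35 in 4 members below 1500 bases. Other coding genes showed the same order at a smaller size, from 0.41 in 186 genes under 300 bases to 0.01 in 3084 genes from 900 to below 1500 bases and -0.09 in 4992 genes of 1500 bases and over. At every length with members, the members' median exceeded that of the other genes. Among other genes an order by length was not particular to Wtap-CKO 3. Spearman correlations of coding length with a library's deviation from the rest of its group were 0.37, 0.05 and -0.41 in Wtap-flox. In Wtap-CKO they were -0.16, 0.55 and -0.35, and values within a group are not independent. In the members the correlation was -0.61 in Wtap-CKO 3 and from -0.23 to 0.58 in the other libraries.

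Single short members make this plain. Rps29, a zinc-binding protein of the small subunit, stood at 69.2, 85.7 and 29.5 FPKM in Wtap-flox and at 41.1, 45.1 and 393.2 FPKM in Wtap-CKO. Rps28, of the messenger RNA exit region, stood at 11.5, 15.7 and 10.1 FPKM and at 11.3, 9.24 and 110.3 FPKM. Rpl41, whose product is a very short basic peptide, stood at 169.6, 215.6 and 142.1 FPKM and at 173.9, 160.0 and 684.1 FPKM. In each of them Wtap-CKO 1 and 2 lay inside or just below the Wtap-flox range and Wtap-CKO 3 alone was high. Rpl38 was alike, at 50.3, 76.8 and 42.0 FPKM and at 72.1, 62.4 and 321.6 FPKM, and so was Rps21, at 45.9, 58.4 and 33.4 FPKM and at 42.3, 44.8 and 239.1 FPKM. The long Rpl4 stood at 272.9, 325.6 and 344.4 FPKM and at 377.9, 325.6 and 402.0 FPKM, so that Wtap-CKO 3 was near Wtap-CKO 1. Without Wtap-CKO 3 the median fold change of the 9 shortest members was -0.04, while that of the longer classes was 0.25, 0.19, 0.19 and 0.15.

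**Figure D4:**
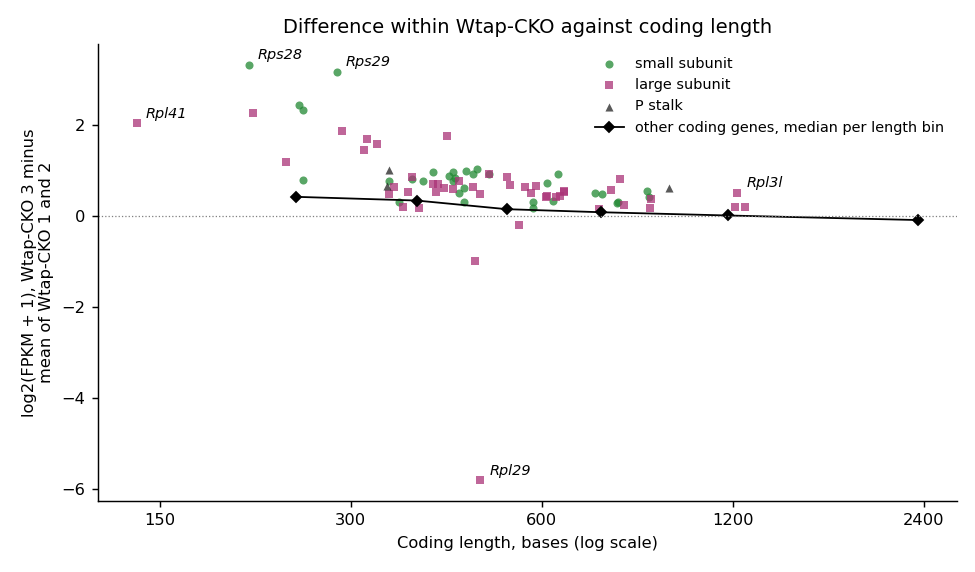
For each tested ribosomal protein gene, log2(FPKM + 1) in Wtap-CKO 3 minus the mean of Wtap-CKO 1 and 2 (vertical axis) against coding length in bases (horizontal axis, log scale). Diamonds joined by a line are the medians of other coding genes in 6 length bins, which run from 0.41 to -0.09, and most members lie above that line, the shortest by the widest margin.

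The sum of macrophage and leukocyte markers was highest in this library, and it was higher in all 3 Wtap-CKO hearts than in Wtap-flox. The 10 macrophage and leukocyte markers summed to between 49.4 and 55.4 FPKM in Wtap-flox, to 87.9 and 74.5 FPKM in Wtap-CKO 1 and 2 and to 199 FPKM in Wtap-CKO 3, with none of them at 0 in all libraries. Of the 9 that were tested 3 rose (the complement genes C1qa and C1qb, and Cd14) and 0 fell, against 9.91% of all tested genes higher and 6.69% lower. The median log2 fold change was 0.78. Without Wtap-CKO 3 it was 0.57, with 3 of the 9 higher, against 9.46% of all tested genes, and all 9 above 0. The neutrophil gene S100a9 stood at 44.9 FPKM in Wtap-CKO 3 and at no more than 5.91 FPKM in the others. The 7 erythroid markers found in the table, of 8 listed, summed to between 661 and 2173 FPKM in Wtap-flox and between 1227 and 2208 FPKM in Wtap-CKO. Of 6 tested 0 passed, against 16.6% of all tested genes. The part of these cells in the ribosomal protein values was not tested.

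Rpl29 encodes a small basic protein on the surface of the large subunit. It was the exception among the 47 members averaging 100 FPKM or more, since Wtap-CKO 3 was the highest library in the others. Rpl17, with a mean of 96.1 FPKM, was also lower there, at 92.1 FPKM against 107.8 and 105.0 FPKM in Wtap-CKO 1 and 2. The level of Rpl29 was 102.8, 123.7 and 117.1 FPKM in Wtap-flox and 158.7, 131.3 and 1.61 FPKM in Wtap-CKO, from 2018, 2213 and 2336 reads and 2885, 2283 and 32 reads. Its fold change of -1.60 (adjusted p = 0.588, limma) rested on that single library, and without it the value was 0.34 (adjusted p = 0.180). Among 11140 tested nuclear coding genes it had the largest fall from Wtap-CKO 1 and 2 to Wtap-CKO 3. Its neighbours Dusp7 and Acy1 stood at 9.97 and 6.79 FPKM in Wtap-CKO 3, against 16.7 and 17.6 FPKM and 4.15 and 4.76 FPKM in the other Wtap-CKO libraries.

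Near-identical copies of Rpl29 took the opposite course. The processed pseudogene Gm13841 stood at 28.6, 39.1 and 43.7 FPKM in Wtap-flox and at 49.9, 47.2 and 116.7 FPKM in Wtap-CKO. Gm8210 stood at 1.66, 3.26 and 1.75 FPKM and at 1.15, 2.01 and 31.5 FPKM. Copies of Rpl29 held between 13.3 and 15.3% of the reads of gene and copies in 5 libraries and 97.6% in Wtap-CKO 3. With reads of the copies added, the log2 fold change was -0.11. Over the 483 bases of the coding sequence, with its stop codon, the annotated Rpl29 and both copies differ by the same 3 substitutions, C72A, C300T and T423C, counted from 1 at the A of the start codon with the base of Rpl29 first. Within the coding sequence only these substitutions tell Rpl29 from both copies, and they do not tell the copies from each other. The 25 bases around each substitution are shown, with the differing base in capitals (GRCm39, GENCODE transcripts):
Rpl29, bases 60 to 84: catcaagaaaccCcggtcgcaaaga
Gm13841 and Gm8210, bases 60 to 84: catcaagaaaccAcggtcgcaaaga
Rpl29, bases 288 to 312: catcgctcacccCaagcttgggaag
Gm13841 and Gm8210, bases 288 to 312: catcgctcacccTaagcttgggaag
Rpl29, bases 411 to 435: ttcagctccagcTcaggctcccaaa
Gm13841 and Gm8210, bases 411 to 435: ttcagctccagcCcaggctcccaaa
Outside these 3 positions the coding sequences of gene and copies are the same. Which letters the reads of Wtap-CKO 3 carry was not tested, since reads were not used here.

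**Figure D5:**
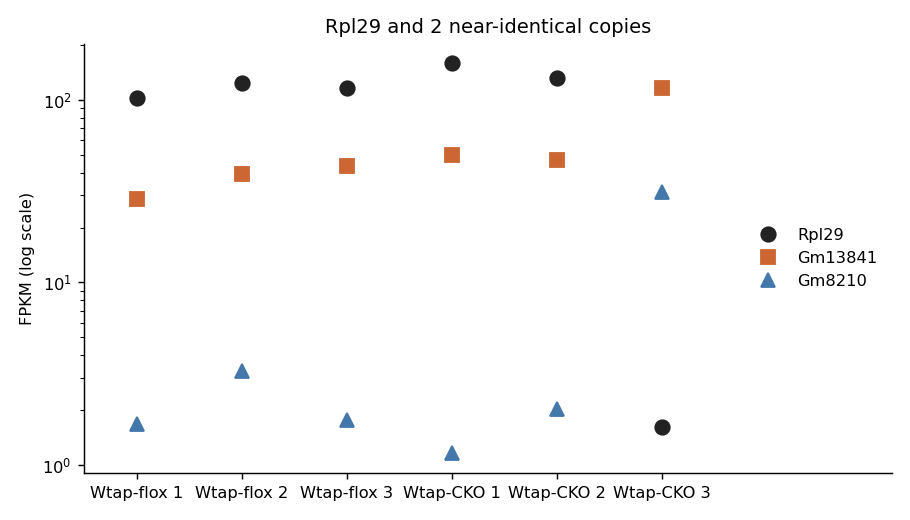
FPKM (vertical axis, log scale) of Rpl29 and its near-identical copies Gm13841 and Gm8210 in each of the 6 libraries, without replicates at this level. Rpl29 lies between 102.8 and 158.7 in 5 libraries and at 1.61 in Wtap-CKO 3, where Gm13841 reaches 116.7 and Gm8210 reaches 31.5.

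Copies were common among the members as a whole. At an identity of at least 95% over at least 80% of the copy, 594 other genes of the table matched a member, and 78 members had at least 1 copy. Copies held between 7.13 and 7.89% of the reads of members and copies in the 6 libraries, with overlapping ranges in the groups. For a few members the copies held most reads: the small subunit gene Rps10 had 1.12, 0.517 and 0.977 FPKM in Wtap-flox and 1.34, 0.812 and 2.90 FPKM in Wtap-CKO, while between 94.4 and 98.6% of its reads with copies were in copies. The levels of Rps10, Rpl17, Rpl21 and Rpl24 are therefore uncertain, and so is that of Rps12, where copies held a smaller part that differed between libraries. With reads of all copies added to their member, the median of the members was 0.42, Rpl3l passed and Rpl22l1 did not (adjusted p = 0.0533). Of the 84 members 18 overlap another coding gene, among them Rps10 (RPS10-NUDT3) and Rpl13a (Gm45713). Copies held only 0.508 to 2.68% of the reads of Rpl13a and its copies. The sources used here do not state whether counting used strand or how reads in overlapping genes were counted.

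Among the genes whose products build ribosomes, those that passed the test were higher in Wtap-CKO. Among 47 assembly factors of the large subunit 12 rose and 0 fell (25.5% against 9.91% of all tested genes higher), with a median of 0.19. Nop2, a methyltransferase of 28S ribosomal RNA, rose from 11.7 ± 2.45 to 26.0 ± 1.81 FPKM (mean ± SD of 3 hearts; log2 change 1.10, adjusted p = 0.00261, limma). Rrp15 (0.91), Nip7 (0.75) and Rrs1 (0.76), which act in processing or assembly of the large subunit, rose as well, while Noc3l had -0.22 and did not pass. Among 41 factors of the small subunit 8 rose and 0 fell (19.5%), with a median of 0.10. Rrp12, an export factor, rose from 6.45 ± 1.63 to 18.3 ± 4.59 FPKM (1.37, adjusted p = 0.00336), and Bysl, which acts late in small subunit assembly, rose from 9.71 ± 1.19 to 19.5 ± 0.793 FPKM (0.94). Utp3 (0.61) and Imp3 (0.76) also rose, but the call of Utp3 was lost when Wtap-CKO 1 was left out, and that of Imp3 when Wtap-flox 2 or Wtap-CKO 1 was. Nat10 had -0.22. Without Wtap-CKO 3, 9 large and 7 small subunit factors rose. Leaving out Wtap-flox 1 left 5 large and 4 small subunit factors, leaving out Wtap-CKO 1 left 6 and 4, leaving out Wtap-flox 2 left 9 and 4, and leaving out Wtap-flox 3 left 8 and 5. Scaling moved these values further: with TPM scaling 7 large and 5 small subunit factors rose (14.9% and 12.2%, against 6.31% of all tested genes), and the medians were 0.03 and -0.03. No factor of either list was lower at an unadjusted p below 0.05 as reported, but with TPM scaling 3 and 4 were, and array weights called 1 small subunit factor lower.

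Chaperones of ribosomal proteins and parts of the nucleolus were also among the genes that rose. Of 11 tested chaperones 3 rose and 0 fell (27.3% against 9.91% of all tested genes higher), led by Grwd1, which binds uL3, from 9.63 ± 1.27 to 21.4 ± 1.23 FPKM (mean ± SD of 3 hearts; log2 change 1.08, adjusted p = 0.00150, limma). The importin gene Ipo4 rose by 0.77. The third was Ltv1, which is also counted among the small subunit factors that rose. Its call was lost in 15 alternatives and kept in 8. Of 12 nucleolar and H/ACA genes 3 rose (25%) and 0 fell, including the pseudouridylation subunits Nhp2 (0.97) and Nop10 (0.95), and Tcof1 had -0.46 (adjusted p = 0.0527). Of 20 genes of RNA polymerase I, which transcribes ribosomal RNA, 4 rose (20%) and 0 fell, among them the subunit genes Polr1d (0.96) and Polr1e (0.59), while the initiation factor gene Rrn3 had -0.21. In each fit that left out Wtap-flox 1, 2 or Wtap-CKO 1, 1 polymerase gene rose and Polr1e did not pass. In those that left out Wtap-flox 1 or Wtap-CKO 1, 0 nucleolar genes rose, and 1 did when Wtap-flox 2 was left out. With TPM scaling 2 genes of each of these 3 lists rose, and 1 nucleolar gene fell.

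Upstream regulators changed in both directions. Myc, a transcription factor known to drive ribosome production, rose from 4.91 ± 0.781 to 11.1 ± 1.26 FPKM (mean ± SD of 3 hearts; log2 change 1.03, adjusted p = 0.00220, limma). Its relative Mycn fell from 6.26 ± 0.125 to 3.85 ± 0.150 FPKM (-0.58, adjusted p = 0.00723), and Mxd3 fell by 0.66. In this network 1 of 10 tested genes rose, a share near the 9.91% of all tested genes, and 2 fell, against 6.69% of all tested genes. The call of Mxd3 was lost when any of Wtap-flox 2 or 3 and Wtap-CKO 1 or 2 was left out. Of 20 genes that control TOP messenger RNAs and mTORC1, 2 rose and 1 fell, shares near those of all tested genes, and with TPM scaling 2 rose and 3 fell. Ddit4, an inhibitor of mTORC1, rose from 17 ± 1.24 to 41.4 ± 4.79 FPKM (1.23, adjusted p = 0.000989), and Eif4ebp1, a target that blocks initiation when mTORC1 is off, rose from 53 ± 3.85 to 90.7 ± 11.4 FPKM (0.76, adjusted p = 0.00969). Tbc1d7, a subunit of the TSC complex, fell by 0.45, a call that was lost when any library other than Wtap-CKO 1 was left out. Of 9 genes of the p53 response to ribosomal stress, Cdkn1a rose (0.89; 11.1% of the list, against 9.91% of all tested genes) and Bbc3 had -0.39. In limma as reported 0 of them fell, with 2 lower at an unadjusted p below 0.05, while with TPM scaling 2 fell, and without Wtap-CKO 3 2 rose and 2 fell.

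Other genes whose messenger RNAs carry a TOP motif included few that passed. Of 21 tested 2 rose (9.52%, against 9.91% of all tested genes) and 0 fell. The median of the 21 was 0.23, or 0.13 without Wtap-CKO 3, 0.06 with TPM scaling and -0.005 with quantile normalization. The elongation factor gene Eef1g rose from 165.4 ± 27.0 to 264.8 ± 22.9 FPKM (mean ± SD of 3 hearts; log2 change 0.69, adjusted p = 0.0290, limma) and the snoRNA host gene Snhg1 rose by 0.62. Leaving out Wtap-flox 1 or 2 or Wtap-CKO 1 ended both calls. That of Eef1g ended also without Wtap-flox 3, and that of Snhg1 ended also without Wtap-CKO 3 (adjusted p = 0.0758). Naca had -0.29. Rack1 (0.41) and Fau (0.39), which encode ribosomal proteins and lie outside the naming pattern, did not pass in limma or limma-voom, and Rack1 had an unadjusted p below 0.05 in limma. Wtap-CKO 3 was the highest of the 6 libraries for both. None of 35 initiation factor genes passed in limma or limma-voom, against 16.6% of all tested genes called in limma. At an unadjusted p below 0.05 in limma 3 of them were higher, against 17.5% of all tested genes. Array weights called 4 higher. The smallest adjusted p in limma was that of Eif3h at 0.43 (adjusted p = 0.0906), and Eif4g2 had -0.33. Of 10 elongation and release factor genes 1 rose, Eef1g, a share near the 9.91% of all tested genes. Eef1a2, the form of heart and muscle, had -0.38 (adjusted p = 0.116).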

How the data were processed

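The authors deposited FPKM values per gene, 1 column per library, made from polyadenylated RNA with size-selected fragments. The submitters' processing notes name CASAVA, HISAT2 2.0.5 as aligner, featureCounts 1.5.0-p3 for counting and DESeq2 1.20.0. The notes name GRCm39, but 94.7% of 20870 coding genes start or end no more than 1000 bases from where GRCm38.p6 has them, so file coordinates are given as GRCm38. FPKM times gene length gave whole reads for 100% of values within 0.01, and limma-voom on these was an alternative.

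Members, lists and tests were chosen with earlier results of these data known. Genes averaging 1 FPKM or more entered limma 3.58.1 (R 4.3.3), fitted on log2(FPKM + 1), with trend and robust moderation, two-sided, Benjamini-Hochberg over all tested genes, at 0.05. The pseudocount of 1 understates fold changes of low genes. Intervals are at 95%. The self-test on simulated data recovered the changed genes it was given. Same-numbered libraries had correlations of deviations of -0.22, -0.08 and -0.08, so numbers were not taken to pair hearts. Coding lengths and near-identical copies are from GENCODE transcripts (GRCm39), matched with blastn.

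Named were members past the threshold, the 5 highest and 5 lowest fold changes and levels, paralogue pairs, the P stalk, Wtap, and from each list up to 4 genes by adjusted p and the first that went the other way. Protein sequences were not used here. A listed gene is not reported here. Python 3.11.15, pandas 2.3.3, scipy 1.17.1 and matplotlib 3.10.9 were used.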

Additional observations from a re-analysis of the deposited data

How the results depend on the processing

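Of the 2 calls among the members, that of Rpl3l was kept in every alternative in which it was tested, and that of Rpl22l1 depended on the settings. The number of members called higher was 1. It was 0 without a filter, with TPM, mitochondria-free, upper-quartile or quantile scaling, with a total that leaves out ribosomal protein genes too, without the trend, without robust moderation, with reads of copies added and at an adjusted p below 0.01. It was 2 with the coding length correction, 3 with the gene length correction and among genes averaging 5 FPKM or more, 4 with limma-voom and 8 with array weights, and from 0 to 7 with 1 library left out. The number lower was 1, and 0 among genes averaging 5 FPKM or more, which Rpl3l does not reach. The median log2 fold change of the members, 0.44, was 0.27 with mitochondria-free scaling and 0.22 with quantile normalization, and from 0.19 (without Wtap-CKO 3) to 0.62 (without Wtap-CKO 2) with 1 library left out. The coding length correction and the sums with copies were added after the data were seen.

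Of all tested genes 2086 changed, against 1206 without a filter, 3732 with array weights, 785 at an adjusted p below 0.01 and from 1189 to 2016 with 1 library left out, fits that have fewer samples. Of the related genes 38 changed, against 19 without a filter, 66 with array weights, 15 at an adjusted p below 0.01 and from 18 to 36 with 1 library left out. The difference in the share of summed FPKM, 0.788 percentage points, was 0.532 as a share of reads and from 0.179 (without Wtap-CKO 3) to 1.24 (without Wtap-CKO 2).

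With the replicate number as a block, 2 members were higher (Rps27a and Rps12) and 1 lower (Rpl3l), and 1673 genes changed over the whole data. The log2 ratio of Rpl3l to Rpl3 was then -1.75 (exact sign-flip permutation test, p = 0.25, the smallest that 3 pairs allow). The numbers are not known to pair hearts.

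Among 74 named genes, 6 changed sign under some alternative, and none of these passed the test as reported. Without Wtap-CKO 3 the signs of Rpl29 (0.34), Rps28 (-0.24) and Rpl24 (0.062) turned, and that of Rpl24 (0.051) also with array weights. With 1 library left out, Rpl29 ranged from -2.63 to 0.34, Rps28 from -0.24 to 1.48, Rpl24 from -0.57 to 0.062, Rpl30 from -0.13 to 0.33 and Wtap from -0.13 to 0.086. Rpl30, at 0.02, had -0.14 with TPM scaling, -0.15 with mitochondria-free scaling, -0.065 with upper-quartile scaling, -0.12 with quantile normalization, -0.14 with a total that leaves out ribosomal protein genes too, -0.037 and -0.16 with the gene length and coding length corrections, and -0.12, -0.13 and -0.13 without Wtap-flox 1, Wtap-CKO 1 and Wtap-CKO 3. Rpl7l1 had -0.035 with TPM scaling, -0.045 with mitochondria-free scaling and -0.031 with a total that leaves out ribosomal protein genes too. Wtap had 0.0076 with array weights, 0.0091 with the gene length correction, and 0.086 and 0.047 without Wtap-flox 3 and Wtap-CKO 2. The cause of these shifts was not tested. Levels of members with few reads, such as Rps10 and Rpl24, are limited by depth and by reads shared with copies, and Rps10 also overlaps another coding gene.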
